A study of Mus musculus with 18 samples.

Results

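Knockout and wildtype luminal progenitors of the mouse mammary gland were compared across all expressed genes. Luminal progenitors (LP) were 1 of 3 epithelial populations sorted by flow cytometry from 14-week-old female mice, and the LP libraries are 6 of the 18 in the series. 3 LP libraries came from mice carrying the MMTV-cre(T/+) transgene with both Brca2 alleles deleted (delta/delta) and 1 of the Trp53 alleles deleted (delta/+), here called KO, and 3 from wildtype controls, here called WT. The 6 were chosen by their population and genotype labels alone, and each came from 1 mouse. The same mice also gave a basal and a mature luminal (ML) library each. Sample names speak of a knockdown where the genotype label says Brca2KO. All 18 libraries bear the same strain label (MMTVcre with Brca2(fl/fl) and Trp53(fl/+)), so whether the WT mice carried floxed alleles or the Cre transgene is not clear from it. The sources used here do not say whether the mice were littermates, and strain background and genotype cannot be told apart.

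Luminal progenitors line the inner face of the mammary ducts and are the source of the alveolar cells that make milk. They carry Kit and Elf5 and little oestrogen receptor, and they are widely discussed as a cell of origin of basal-like breast tumours. Brca2 serves the repair of DNA breaks by homologous recombination and protects stalled replication forks. Trp53 encodes p53, which answers DNA damage by inducing genes that stop the cell cycle or start apoptosis. MMTV-Cre drives recombination from a mouse mammary tumour virus promoter, mainly in mammary epithelium, and it need not act in every cell.

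Total counts were 22.42, 32.72 and 27.55 M (mega) in LP KO replicates 1, 2 and 3 and 9.29, 9.86 and 16.17 M in the WT replicates, so the 2 genotypes did not overlap in depth. Levels below are in CPM, counts scaled to a library total of 1 M, after TMM scaling, always in the order replicate 1, 2, 3. KO replicate 3 stood apart from the other LP libraries. Genes were split by length into 5 classes of nearly equal number. In this library the longest class, of 4555 bases or more, took 18% of the counts, against 28.1% to 32.1% in the other 5 LP libraries, and the shortest class, of up to 1411 bases, took 21.2% against 10.6% to 13.9%. Immune transcripts were also higher in that library. The summed level of 23 immune cell markers other than Cd14, which LP cells express themselves, was 68.1 CPM there, 17.1 and 12.3 CPM in the other KO libraries and 15.2, 13 and 8.77 CPM in WT. The macrophage gene Lyz2 stood at 25.3 CPM in KO replicate 3 and at 0.614 to 1.60 CPM in the other 5.

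The LP label was set beside known lineage markers. Kit, a receptor tyrosine kinase of progenitors, stood at 495, 629.5 and 397 CPM in KO and 492, 833 and 852 CPM in WT. Elf5, the transcription factor of the alveolar lineage, stood at 306, 342 and 637 CPM in KO and 157, 552 and 484 CPM in WT. Both were abundant in every library, and the groups overlapped for both. Krt5, a keratin of basal cells, reached at most 6.71 CPM. The basal list of 24 genes summed to 900 to 1206 CPM over these libraries, and the mature luminal list of 22 genes to 1711 to 2551 CPM. Summed over 22 progenitor identity genes, the level was 6703, 7224 and 8959 CPM in KO and 12430, 13480 and 10760 CPM in WT. All 6 libraries therefore carried the progenitor markers, at a lower sum in each KO library than in any WT library. In bulk samples fewer cells of a type and less RNA per cell cannot be told apart.

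Across the genome the KO progenitors differed from WT at 2178 of 16466 genes tested (13.2%), 1243 of them higher (7.55%) and 935 lower (5.68%). Calls are at an adjusted p under 0.05 from edgeR's quasi-likelihood test, fitted to all 18 libraries with Benjamini-Hochberg adjustment. The median log2 fold change of all genes was 0.02. The KO and WT libraries did not overlap for 5109 genes (31.0%), 17.7% higher and 13.4% lower in KO, and 2074 of the 5109 were also called. At an unadjusted p under 0.05 there were 4913 genes (29.8%). The number of calls rested on single libraries: without WT replicate 2 it was 830, without KO replicate 3 it was 1193, without KO replicate 1 it was 1266 and without WT replicate 1 it was 1450, against 2126 and 2409 without KO replicate 2 and WT replicate 3. No gene called both with all libraries and with 1 left out changed its direction. Of the genes called without KO replicate 3, 1077 were among those called with it.

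**Figure D1:**
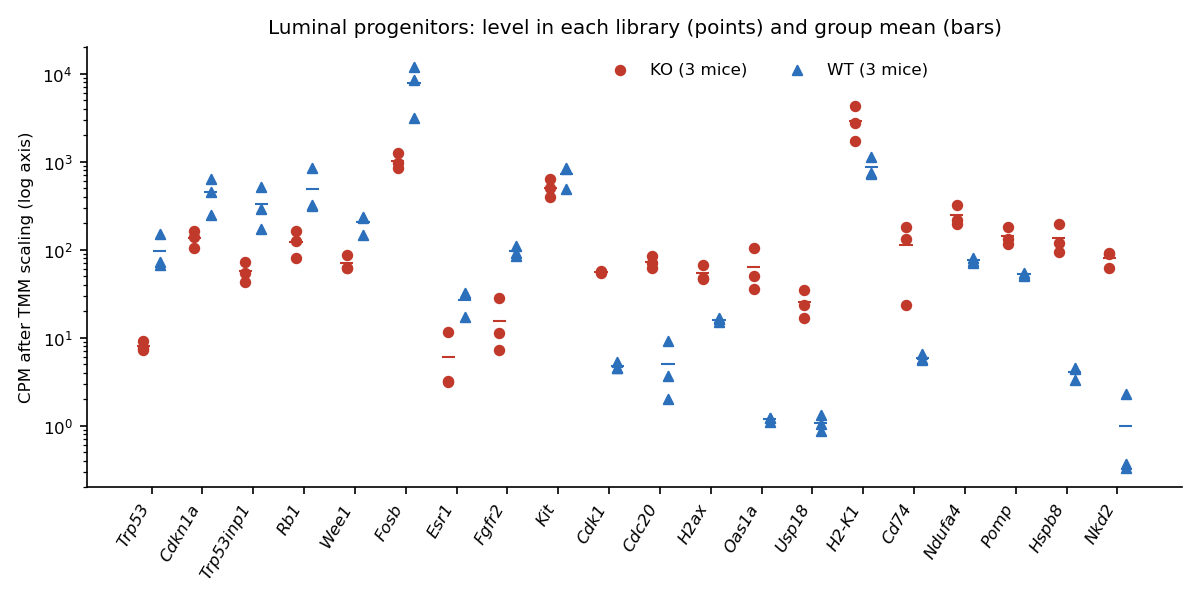
Level of 20 genes in each of the 6 luminal progenitor libraries, in CPM after TMM scaling on a log axis, with KO as red circles, WT as blue triangles and short bars at the group means. Of these genes only Kit, for which the KO and WT libraries overlap, did not pass the test.

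Trp53 itself, on chromosome 11 at 69580348 to 69591873 of mm10, was among the clearest falls. It stood at 9.05, 7.25 and 7.71 CPM in KO and 67.1, 72.6 and 150.3 CPM in WT. Every KO library lay within a narrow band far below the lowest WT library (log2 fold change -3.6 ± 0.36 SE, adjusted p = 2.2e-05). The labels name 1 deleted copy, and the counts do not show from which allele or exon a read came. The fall was larger than loss of 1 copy would give if the other copy kept its level. What sets its size was not tested. Brca2, on chromosome 5 at 150522297 to 150570147, stood at 20.4, 24.7 and 10.3 CPM in KO and 16.4, 25.7 and 35.6 CPM in WT. Its groups overlapped and it did not pass the test (log2 fold change -0.49 ± 0.50 SE, adjusted p = 0.55). Counts are summed over each gene, so reads from exons outside the deleted part still count, and the level of Brca2 is no check of its deletion.

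Of 34 measured genes known as p53 targets, 7 fell and 4 rose, with a median log2 fold change of -0.33. Those that fell were Trp53inp1, Aen, Cdkn1a, Ccng1, Mdm2, Btg2 and Eda2r. Trp53inp1, which amplifies the p53 response, stood at 42.8, 72.6 and 54.2 CPM in KO and 289.8, 519 and 171 CPM in WT (log2 fold change -2.53 ± 0.45 SE, adjusted p = 0.0019). Aen, a p53-induced nuclease, stood at 10.7, 17.1 and 11.5 CPM in KO and 52.8, 37.1 and 47.1 CPM in WT (log2 fold change -1.8 ± 0.33 SE, adjusted p = 0.002). For Cdkn1a, whose product p21 blocks cyclin-dependent kinases, the levels were 162, 139 and 105 CPM in KO and 638, 456 and 244 CPM in WT (log2 fold change -1.72 ± 0.36 SE, adjusted p = 0.0054). Each of these 3 genes was lower in all KO libraries than in any WT library. Mdm2, the ubiquitin ligase that degrades p53, stood at 104, 106 and 75.5 CPM in KO and 206, 191 and 129.6 CPM in WT. It fell by 0.88 on the log2 scale, without overlap, and its call was lost without WT replicate 1, WT replicate 2 or KO replicate 3 (adjusted p up to 0.095). The 4 that rose were Pmaip1, Ckap2, Psrc1 and Gtse1. Pmaip1 encodes Noxa, a pro-apoptotic BH3-only protein, and stood at 56.2, 37.7 and 29.2 CPM in KO and 3.33, 8.12 and 7.85 CPM in WT (log2 fold change 2.66 ± 0.51 SE, adjusted p = 0.0031). Ckap2, Psrc1 and Gtse1 encode proteins of the mitotic spindle and the G2 phase. Without KO replicate 3, 5 targets fell and 2 rose.

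Brakes and drivers of the cell cycle, most of them of the G1 phase, moved in both directions. Of 20 cyclins, cyclin-dependent kinases, inhibitors and Cdc25 phosphatases, 9 rose and 2 fell, with a median of 0.65. The 9 include Cdc25b and Cdc25c, which act later than G1. The 2 that fell were Cdkn1a and Ccng1, both also among the p53 targets above. Without KO replicate 3, 8 rose and 2 fell. Of the rises, 4 were the INK4 family, inhibitors of Cdk4 and Cdk6. Cdkn2a, which encodes p16 and p19Arf, stood at 4.503, 5.58 and 7.71 CPM in KO and 0, 0.222 and 0 CPM in WT, from 542 counts in KO and 2 in WT. Its ratio of KO to WT was 100.4 with an exact 95% interval of 27.65 to 830.8, which covers counting error only. Cdkn2b stood at 2.38, 2.26 and 2.34 CPM in KO and 0.3701, 0 and 0.123 CPM in WT, at the edge of detection in WT. Both genes were thus close to 0 in WT progenitors. Cdkn2c stood at 9.298, 10.5 and 17.9 CPM in KO and 2.59, 3.11 and 3.19 CPM in WT. Cdkn2d stood at 13.5, 11.7 and 18.8 CPM in KO and 5.68, 5.34 and 5.15 CPM in WT. No WT library reached the lowest KO library for any of the 4, and they were called at adjusted p from 0.0025 to 0.0066. The calls of Cdkn2b and Cdkn2c were lost when every library was thinned to 5.97 M counts. Cyclin D3 (Ccnd3) stood at 71.3, 68.3 and 69.5 CPM in KO and 34.4, 30.1 and 36.5 CPM in WT, with a narrow range in each genotype. Cyclin E1 (Ccne1) stood at 13.8, 13.4 and 8.56 CPM in KO and 1.48, 0.667 and 3.13 CPM in WT, with a call that was lost without WT replicate 2 (adjusted p = 0.073) and after thinning (0.098). Cdc25c, a phosphatase that activates Cdk1, stood at 10.6, 11.1 and 15.02 CPM in KO and 2.097, 0.8895 and 0.123 CPM in WT and its relative Cdc25b at 24.6, 22.5 and 20.3 CPM in KO and 5.92, 0.445 and 2.94 CPM in WT, both without overlap.

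Among regulators of entry into S phase, the retinoblastoma gene Rb1 fell and some members of the E2F and FoxM1 families rose. Rb1, which holds E2F factors in check, stood at 80.4, 164 and 125 CPM in KO and 309.8, 837 and 321 CPM in WT (log2 fold change -1.99 ± 0.35 SE, adjusted p = 0.0017). WT replicate 2 was highest, and no KO library reached the lowest WT library. Of 19 members of the E2F, RB and FoxM1 families, 5 rose and 1 fell. E2f2, an activating E2F, stood at 19.8, 20.8 and 14.9 CPM in KO and 1.36, 1.11 and 2.76 CPM in WT (log2 fold change 3.36 ± 0.51 SE, adjusted p = 0.00062). The other 4 rises were E2f8, Mybl2, Foxm1 and E2f7. The mitotic regulators Mybl2 and Foxm1 rose by 2.16 and 1.95 on the log2 scale, and both calls were lost without WT replicate 2 (adjusted p = 0.053 and 0.068).

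Genes of mitosis rose nearly as a block. Of 40 measured, 37 were higher in KO and none lower, with a median log2 fold change of 2.87 and all 40 estimates above 0. Summed over the list the level was 2164, 2209 and 1747 CPM in KO and 508, 210 and 310 CPM in WT. Leaving out 1 library gave 34 to 38 rises, and 36 without KO replicate 3. Cdk1, the kinase that starts mitosis, stood at 55.8, 56.4 and 54.9 CPM in KO and 4.57, 4.56 and 5.33 CPM in WT, nearly equal within each genotype (log2 fold change 3.52 ± 0.35 SE, adjusted p = 2.2e-05). Cdc20, which switches on the anaphase-promoting complex, stood at 70.9, 62.3 and 84.4 CPM in KO and 9.25, 2.001 and 3.68 CPM in WT (log2 fold change 3.88 ± 0.45 SE, adjusted p = 6.6e-05). The centromeric histone gene Cenpa stood at 41.6, 34.2 and 55.5 CPM in KO and 6.17, 1.001 and 2.27 CPM in WT. Separase (Espl1) stood at 36.4, 38.3 and 20.9 CPM in KO and 4.94, 2.67 and 3.49 CPM in WT. For these 4 genes the highest WT library was far below the lowest KO library. Racgap1, needed for cytokinesis, and Bub1b, of the spindle checkpoint, rose by 2.71 ± 0.36 and 2.66 ± 0.37 (log2, SE). Against this, Wee1, the kinase that restrains Cdk1, stood at 62.3, 86.1 and 61.6 CPM in KO and 146, 237 and 230.2 CPM in WT and fell (log2 fold change -1.55 ± 0.21 SE, adjusted p = 0.00028).

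Promoter sequences are shown for the 2 called mitosis genes of lowest p among those holding both of 2 elements. Holding them was thus a condition of the choice. Each run is the 250 bases before the annotated start on the minus strand of GRCm38.p6, from RefSeq, 5′ to 3′, with matches in capitals. The first motif is CCAAT, on either strand. The other is TTTGAA, the core of the cell cycle homology region, also on either strand.
Cdk1, chr10:69352913-69353162: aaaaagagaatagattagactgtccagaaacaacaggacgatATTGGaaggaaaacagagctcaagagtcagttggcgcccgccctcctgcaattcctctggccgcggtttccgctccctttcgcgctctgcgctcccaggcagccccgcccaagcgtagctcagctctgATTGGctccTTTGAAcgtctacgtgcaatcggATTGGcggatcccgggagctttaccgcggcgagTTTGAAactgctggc
Cdc20, chr4:118437344-118437593: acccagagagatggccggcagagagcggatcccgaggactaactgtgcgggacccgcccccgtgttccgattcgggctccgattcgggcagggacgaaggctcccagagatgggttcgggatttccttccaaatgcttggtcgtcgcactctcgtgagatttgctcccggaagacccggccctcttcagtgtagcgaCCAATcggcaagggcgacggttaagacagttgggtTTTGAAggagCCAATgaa
Cdk1 held 5 matches, at 208, 80, 71, 48 and 15 bases before the start, and Cdc20 held 3, at 53, 18 and 8 bases. Such pairs of elements are known in genes repressed outside G2 and mitosis. Among the mitosis genes with a promoter in the table, 25 of 35 held CCAAT (71.4%), against 36.5% of the 12237 promoters of all genes tested. TTTGAA was in 10 of the 35 (28.6%), against 11% of all. The E2F octamers TTTGGCGC and TTTCCCGC were in none of the 35 and in 2.42% of all. All searches covered both strands and exact letters only. A match is a description of the sequence and not a shown binding site.

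Fewer replication genes passed the test. Of 37 measured, 9 rose and none fell, with a median of 0.98 and all 37 estimates above 0. That count was 4 without KO replicate 3, and it ran from 3 to 19 as single libraries were left out. Dbf4, which activates the origin kinase Cdc7, stood at 44.2, 44.7 and 34.98 CPM in KO and 16.3, 9.67 and 17.5 CPM in WT (log2 fold change 1.51 ± 0.30 SE, adjusted p = 0.0043). Rrm2, which supplies deoxynucleotides, stood at 53.2, 45.3 and 21.5 CPM in KO and 7.03, 4.11 and 11.5 CPM in WT. Cdc45, a part of the replicative helicase, stood at 25.3, 25.04 and 17.5 CPM in KO and 2.96, 2.001 and 8.89 CPM in WT. No WT library reached the KO range for these 3 genes, and WT replicate 3 was the highest WT library for each.

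Few genes of homologous recombination and Fanconi anaemia were called, at shares close to those over all genes (7.55% higher and 5.68% lower). Of 35 recombination and Fanconi anaemia genes, Rad54l and Rad51b rose and Rad50 and Rad51d fell, with a median of 0.26. Rad54l, a DNA translocase of homologous recombination, stood at 13.5, 13.2 and 8.597 CPM in KO and 3.21, 1.89 and 4.41 CPM in WT (log2 fold change 1.87 ± 0.43 SE, adjusted p = 0.0092). All 4 calls rested on single libraries: each was lost without WT replicate 2, with an adjusted p over all alternatives of up to 0.058 for Rad54l and 0.25 for Rad51d. Without KO replicate 3, 1 gene of the list rose and none fell. Among 17 checkpoint genes, H2ax and Clspn rose and Wee1, Mdc1 and Atr fell. H2ax, whose histone is phosphorylated at DNA breaks, stood at 47.5, 45.7 and 67.4 CPM in KO and 16.7, 15.01 and 16.3 CPM in WT (log2 fold change 1.74 ± 0.25 SE, adjusted p = 0.00032). Mdc1, which binds that phosphorylated histone, stood at 68.7, 80.95 and 43.9 CPM in KO and 138, 135 and 121 CPM in WT and fell by 1.02 on the log2 scale. The groups were apart for both genes, in opposite directions.

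Interferon-stimulated genes formed the other large block. Of 47 measured, 33 rose and none fell, with a median of 2.71 and all 47 estimates above 0. The summed level was 3424, 2339 and 4250 CPM in KO and 728, 1139 and 1311 CPM in WT. The count was 29 without KO replicate 3 and 28 to 34 as each library was left out. Oas1a, which makes the 2-5A signal on binding double-stranded RNA, stood at 50.3, 35.3 and 103 CPM in KO and 1.23, 1.22 and 1.103 CPM in WT (log2 fold change 5.73 ± 0.58 SE, adjusted p = 2.2e-05). KO replicate 3 was highest and WT was even. Usp18, which removes ISG15 and damps interferon signalling, stood at 23.5, 16.6 and 35.2 CPM in KO and 0.864, 1.33 and 1.04 CPM in WT (log2 fold change 4.53 ± 0.51 SE, adjusted p = 5.7e-05). Ifitm3, a membrane protein that blocks viral entry, stood at 153, 76.9 and 196 CPM in KO and 20.1, 15.7 and 18.4 CPM in WT (log2 fold change 2.97 ± 0.34 SE, adjusted p = 5.7e-05). Oasl1, a relative of the Oas enzymes, stood at 83.2, 39.96 and 97.7 CPM in KO and 3.08, 3.002 and 6.74 CPM in WT. KO replicate 2 had the lowest KO level of each of these 4 genes, still above all WT libraries. Reads of the Oas1 family may be shared between its near-identical copies, so the level of Oas1a is uncertain.

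Promoters are shown for Oas1a and Oas3. They are the 2 called genes of lowest p in the list whose promoter held an element known from genes of this kind. Holding it was thus a condition of the choice. Oas2 and Usp18 had a lower p than Oas3, and no match was found for them. Both runs are 250 bases before the start on the minus strand, as above, with the core of the interferon-stimulated response element (GAAA repeated after any 2 bases) in capitals.
Oas1a, chr5:120907526-120907775: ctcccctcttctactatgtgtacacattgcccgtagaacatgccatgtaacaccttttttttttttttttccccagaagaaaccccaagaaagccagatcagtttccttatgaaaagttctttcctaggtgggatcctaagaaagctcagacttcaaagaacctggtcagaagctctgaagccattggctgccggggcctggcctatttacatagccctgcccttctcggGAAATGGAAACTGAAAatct
Oas3, chr5:120777660-120777909: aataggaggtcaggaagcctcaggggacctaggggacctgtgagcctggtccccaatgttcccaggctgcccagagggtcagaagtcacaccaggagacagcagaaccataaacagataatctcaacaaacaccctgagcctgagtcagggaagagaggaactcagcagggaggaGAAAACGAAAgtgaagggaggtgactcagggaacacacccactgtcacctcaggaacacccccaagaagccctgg
Oas1a held 2 overlapping matches, beginning 20 and 14 bases before the start, and Oas3 held 1 at 75 bases. Of the 34 interferon-stimulated genes with a promoter in the table, 17 held the element (50.0%). It was in 5.96% of the promoters of genes that rose, 2.26% of those that fell and 2.66% of all 12237. Oas3 stood at 55.9, 31.2 and 34.4 CPM in KO and 0.247, 1.45 and 1.23 CPM in WT, and its relative Oas2 at 106, 88.5 and 184 CPM in KO and 2.71, 2.56 and 4.23 CPM in WT. Both rose without overlap, by 5.32 and 5.29 on the log2 scale.

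The genes that make or receive interferon did not pass the test. None of 19 ligands, receptors and signal transducers was called, with a median of 0.06. Ifnb1, which encodes interferon beta, had 36 counts in KO and none in WT, with 0.792, 0.139 and 0.395 CPM in KO and 0, 0 and 0 CPM in WT. Set against a floor of 3 counts over the WT group it was at least 4.44-fold higher, and the call was missed (adjusted p = 0.085). Of 23 sensors of nucleic acid and their adaptors, 7 rose and none fell, and 3 rose without KO replicate 3. Zbp1, which senses Z-form nucleic acid, stood at 28.1, 19.3 and 49.4 CPM in KO and 8.14, 6.56 and 6.31 CPM in WT (log2 fold change 2.21 ± 0.41 SE, adjusted p = 0.0025). Ikbke, a kinase of the interferon regulatory factors, stood at 17.9, 8.199 and 16.6 CPM in KO and 1.48, 2.22 and 5.27 CPM in WT. Ifi204, a DNA sensor in a cluster of similar genes that can share reads, stood at 8.34, 3.88 and 2.503 CPM in KO and 0.247, 0.111 and 0.184 CPM in WT. For all 3 the KO libraries lay above the WT libraries.

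Part of the genes of antigen presentation also rose. Of 17 genes of the MHC class I pathway, 9 rose and none fell, with a median of 1.37. H2-K1, a classical class I heavy chain whose reads may be shared with its paralogs, stood at 2716, 1707 and 4238 CPM in KO and 737, 719 and 1140 CPM in WT (log2 fold change 1.74 ± 0.31 SE, adjusted p = 0.0019). B2m, its light chain, stood at 2590, 1410 and 3174 CPM in KO and 451, 714 and 797 CPM in WT (log2 fold change 1.87 ± 0.38 SE, adjusted p = 0.0042). Tapbp, which helps to load peptide, stood at 338, 271 and 402 CPM in KO and 101, 187 and 182 CPM in WT. KO replicate 2 was the lowest KO library for each of these genes. The pathway's count was 5 without KO replicate 3 and 4 without WT replicate 2. The peptide transporter Tap1 and the class I transactivator Nlrc5 rose by 1.65 and 1.71 (log2), and both calls were lost without KO replicate 1, WT replicate 1 or WT replicate 2, and that of Tap1 also without KO replicate 3 (adjusted p over all alternatives up to 0.075 and 0.12). All 5 immunoproteasome genes rose, with a median of 1.03, but 1 did without KO replicate 3, WT replicate 1 or WT replicate 2, and 2 did without KO replicate 1. Psmb8, a catalytic subunit of that particle, stood at 226, 114 and 280.3 CPM in KO and 39.6, 63.5 and 85.9 CPM in WT (log2 fold change 1.71 ± 0.36 SE, adjusted p = 0.0057).

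The class II genes that rose did so unevenly over the KO mice. Of 11 measured, Cd74, H2-DMa, Ctss, H2-Aa and H2-Ab1 rose, with a median of 2.27. Cd74, the invariant chain, stood at 132, 23.5 and 181 CPM in KO and 5.68, 5.56 and 6.56 CPM in WT (log2 fold change 4.24 ± 0.87 SE, adjusted p = 0.0047). KO replicates 1 and 3 were high, and KO replicate 2 was nearer to WT but above it. H2-Aa, a class II alpha chain, stood at 15.6, 2.203 and 24.6 CPM in KO and 1.97, 1.33 and 0.674 CPM in WT, and 9 of 16 other settings lost its call (adjusted p up to 0.15). Class II genes are expressed by immune cells, and 3 of 11 measured immune markers rose, namely Csf1r, Coro1a and Itgam. The macrophage receptor Csf1r stood at 4.63, 2.04 and 7.54 CPM in KO and 0.494, 0.445 and 1.35 CPM in WT (log2 fold change 2.55 ± 0.59 SE, adjusted p = 0.0093), a call lost without WT replicate 2 (adjusted p = 0.056), after thinning (0.15) and in the fit of the 6 LP libraries alone (0.06). KO replicate 1 had Cd74 at 132 CPM with Lyz2 at 0.709 CPM and the pan-leukocyte gene Ptprc at 0.334 CPM, while KO replicate 3 had Lyz2 at 25.3 CPM and Ptprc at 1.09 CPM. Of the class II genes 2 rose without KO replicate 3, KO replicate 1 or WT replicate 1, and 1 without WT replicate 2. Of the immune markers 1 rose without KO replicate 3, WT replicate 1 or WT replicate 2. The part of immune cells in these levels was not tested.

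Most inflammatory genes were not called, and 3 chemokines were among the few that rose. Of 28 NF-kB and inflammatory genes, Ccl5, Ccl2, Ccl20 and Csf1 rose and Rel fell, with a median of -0.09. The chemokines Cxcl1, Cxcl2 and Cxcl5 were not called. Ccl2, which draws monocytes, stood at 60.8, 16.3 and 22.8 CPM in KO and 0.617, 0.667 and 0.736 CPM in WT (log2 fold change 5.59 ± 0.86 SE, adjusted p = 0.00064). Ccl5, which draws T cells, stood at 26.3, 6.11 and 28.6 CPM in KO and 0.617, 0.334 and 1.04 CPM in WT (log2 fold change 4.85 ± 0.70 SE, adjusted p = 0.00036). Ccl20, a ligand of Ccr6, stood at 75.97, 18.4 and 22.5 CPM in KO and 0.3701, 0 and 1.59 CPM in WT (log2 fold change 5.69 ± 1.14 SE, adjusted p = 0.0062). KO replicate 1 held the highest level of Ccl2 and Ccl20, and no KO library fell within the WT range. All 3 calls held in each of 16 other settings.

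Many genes of the proteasome and of respiration rose by smaller steps, and the counts rested on single libraries of both genotypes. Of 33 subunits of the constitutive proteasome and its regulators, 19 rose and none fell, with a median of 0.76. Pomp, the assembly factor of the core particle, stood at 133, 117 and 180.1 CPM in KO and 54.7, 50.7 and 51.1 CPM in WT (log2 fold change 1.46 ± 0.22 SE, adjusted p = 0.00047). Psmb2, a core subunit, stood at 162, 138 and 227 CPM in KO and 71.1, 66.9 and 75.8 CPM in WT. KO replicate 3 was highest for both, and the other 2 KO libraries were also above all WT libraries. Without that library 14 proteasome genes rose. With the length trend of each library removed 10 did, and without WT replicate 2, 7 did. Of 37 subunits of respiratory complex I, 18 rose and none fell, and 7 rose without KO replicate 3, 8 without WT replicate 2 and 9 without WT replicate 1. Of 12 of complex IV, 8 rose and none fell, and 3 rose when each of those 3 libraries was left out. Of 15 of ATP synthase, 8 rose and none fell, with 4 without KO replicate 3 and 5 without either WT library. Of 36 of the mitochondrial ribosome, 7 rose and none fell, with 1 without KO replicate 3, 1 without WT replicate 2 and 2 without WT replicate 1. Of 13 genes of complexes II and III, 4 rose and 1 fell, and 3 rose without KO replicate 3 and 2 without WT replicate 2. Ndufa4, linked to the respiratory chain, rose by 1.71 on the log2 scale. Ndufa11, of complex I, stood at 53.5, 44.5 and 80.3 CPM in KO and 18.3, 19.2 and 25.4 CPM in WT. Cox8a, of complex IV, stood at 144, 119.7 and 201 CPM in KO and 69.7, 71.3 and 73.4 CPM in WT. Atp5j2, of ATP synthase, stood at 84.3, 77.1 and 136 CPM in KO and 37.1, 39.4 and 44.3 CPM in WT. For each of the 3 the KO libraries lay above the WT libraries, KO replicate 3 highest, and their calls held in every other setting, with adjusted p up to 0.046.

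**Figure D2:**
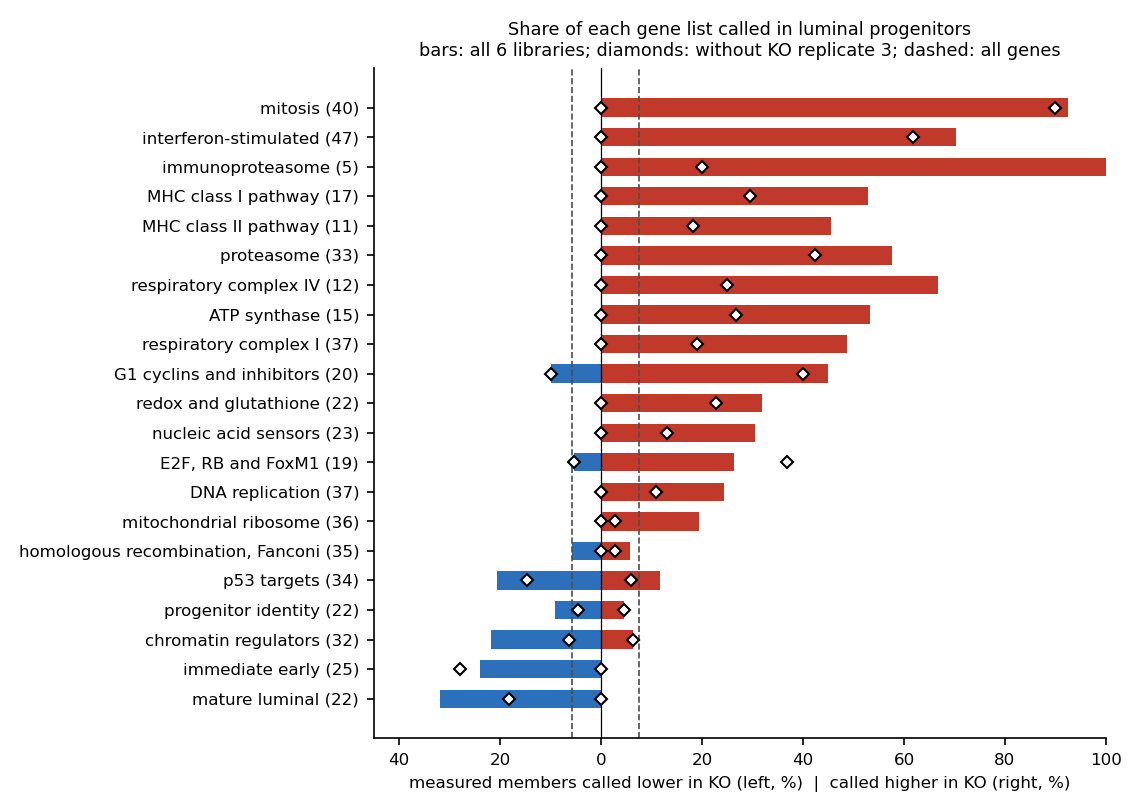
Share of the measured members of each gene list (number in brackets) called higher in KO (red, right) or lower (blue, left) in luminal progenitors, with diamonds for the same count without KO replicate 3 and dashed lines at 7.55% and 5.68%, the shares over all genes. Mitosis has 36 of 40 without that library, while complex I, complex IV, mitochondrial ribosome and immunoproteasome lose most of theirs.

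Of the glycolytic genes 4 rose, of the redox genes 7 rose, and none of either group fell. Pgam1, of lower glycolysis, stood at 63.9, 66.7 and 78.9 CPM in KO and 27.6, 19.7 and 26.5 CPM in WT (log2 fold change 1.5 ± 0.22 SE, adjusted p = 0.00036). Of 19 glycolytic genes the others that rose were Eno1, Pkm and Tpi1, with a median of 0.23 for the list. Txn1, thioredoxin, stood at 331, 276 and 377 CPM in KO and 137, 105 and 118 CPM in WT (log2 fold change 1.45 ± 0.26 SE, adjusted p = 0.0018). Gsta4, which clears lipid peroxidation products, stood at 79.3, 20.6 and 69.8 CPM in KO and 5.68, 13.6 and 14.8 CPM in WT. The redox list of 22 genes had a median of 0.35, and 5 rose without KO replicate 3. Of 64 ribosomal protein genes, which are also short, 1 rose and 1 fell, with a median of 0.18, and without KO replicate 3 none rose and 3 fell.

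Gene length moved with the genotype effect. From the shortest to the longest class, the median log2 fold change was 0.37, 0.18, 0.06, -0.09 and -0.32. In the shortest class 12.6% of genes rose and 1.76% fell, and in the longest 4.1% rose and 12.9% fell. Without KO replicate 3 the medians were 0.13, 0.07, 0.02, -0.05 and -0.17, so the trend kept its direction in the other 2 KO libraries at less than the full size. In basal cells the medians lay between -0.07 and 0.01 and in ML cells between -0.03 and 0.08. With a smooth trend on length taken out of each library, 1907 genes were called, 1564 of them shared with the 2178. In that fit 38 mitosis genes and 33 interferon-stimulated genes rose, while complex I had 7 and the median of 32 chromatin regulators went from -0.52 to -0.09. The lists of antigen presentation had fewer rises there: 6 against 9 for MHC class I, 2 against 5 for class II and 1 against 5 for the immunoproteasome. RNA quality values are not among the data used here, and what sets the trend was not tested.

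**Figure D3:**
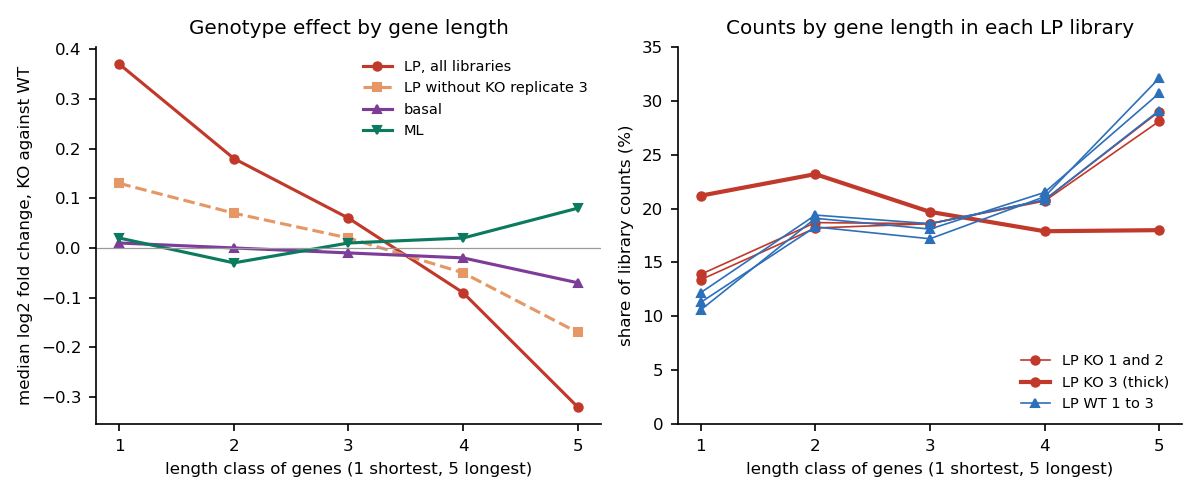
Left, median log2 fold change (KO against WT) by length class in LP with all libraries, in LP without KO replicate 3, in basal and in ML cells. Right, share of each LP library's counts in the same classes: KO replicate 3 (thick line) has 18% in the longest class, the other 5 libraries 28.1% to 32.1%.

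**Figure D4:**
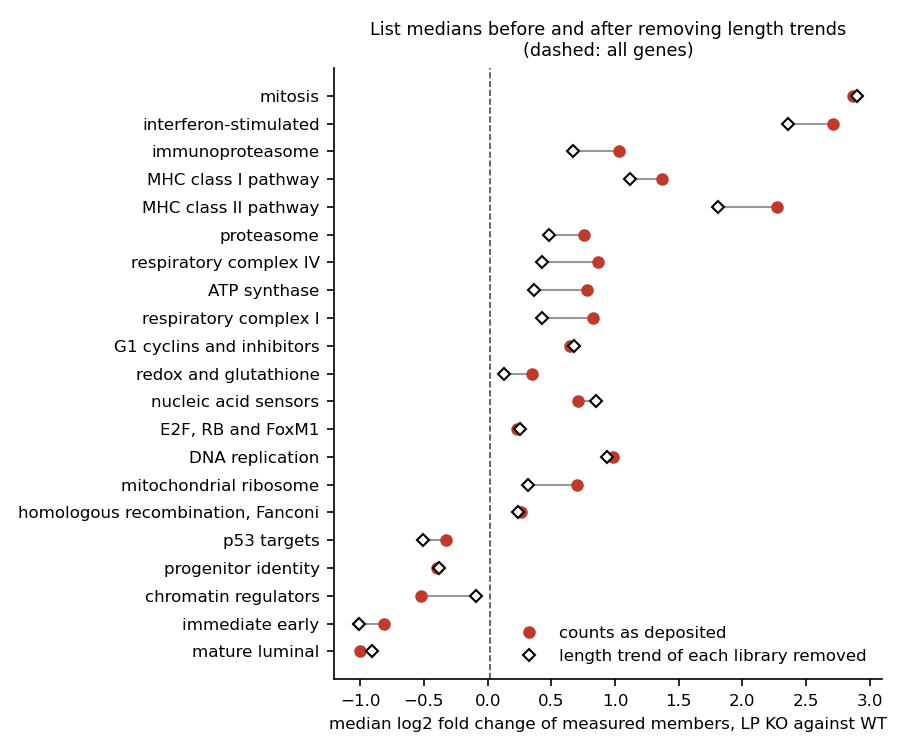
Median log2 fold change of the measured members of each list in luminal progenitors from the counts as deposited (red circles) and after the length trend of each library was removed (open diamonds), with a dashed line at 0.02, the median of all genes. Mitosis stays at 2.87 and 2.90, and chromatin regulators move from -0.52 to -0.09.

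Progenitor identity genes were mostly not called. Of 22 measured, Gabrp rose, Tspan8 and Ceacam1 fell (1 of each direction without KO replicate 3), and the median was -0.40. Gabrp, a GABA receptor subunit that marks progenitors, stood at 151, 129.7 and 112 CPM in KO and 41.2, 64.9 and 34.6 CPM in WT, without overlap. Ceacam1, an adhesion molecule, stood at 492, 457 and 340.4 CPM in KO and 1902, 1134 and 476 CPM in WT, with KO replicate 1 above WT replicate 3. Tspan8, a tetraspanin, stood at 6.796, 14.97 and 40.7 CPM in KO and 120, 96.2 and 39.2 CPM in WT, with KO replicate 3 inside the WT range. Between 4 and 8 of 16 other settings lost these calls (adjusted p up to 0.067 for Gabrp, 0.095 for Tspan8 and 0.17 for Ceacam1), also without KO replicate 1 or WT replicate 1. Mfge8, a milk fat globule protein, stood at 1569, 1984 and 2782 CPM in KO and 3207, 5045 and 4158 CPM in WT. It was lower in every KO library but short of the threshold (adjusted p = 0.059). Of 16 other settings 3 called it (adjusted p from 0.023 to 0.2). Aldh1a3, an enzyme of retinoic acid synthesis, stood at 234, 197 and 123 CPM in KO and 787, 267 and 319 CPM in WT, again lower in every KO library and not past the threshold (adjusted p = 0.096).

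Among 23 regulators of the progenitor and luminal lineages, Hes1, Sox9 and Gata3 fell and Bcl11b and Inpp4b rose. These few calls stand beside shares over all genes of 7.55% higher and 5.68% lower. Hes1, a Notch effector, stood at 132, 143 and 235 CPM in KO and 305, 374 and 614 CPM in WT (log2 fold change -1.34 ± 0.29 SE, adjusted p = 0.0069). Sox9, a factor of progenitor identity, stood at 342, 329 and 339.8 CPM in KO and 786, 726 and 541 CPM in WT (log2 fold change -1.02 ± 0.24 SE, adjusted p = 0.0095). Gata3, a master factor of luminal fate, stood at 70.6, 76.2 and 103 CPM in KO and 148, 195 and 145 CPM in WT. Each was lower in all KO libraries. The calls of all 3 were lost in the fit of the 6 LP libraries alone (adjusted p = 0.062 for Hes1, 0.059 for Sox9 and 0.065 for Gata3), and that of Gata3 also without KO replicate 1, KO replicate 2 or WT replicate 2 (adjusted p up to 0.10). Bcl11b, a zinc finger factor known in basal and T cells, stood at 3.46, 2.57 and 2.54 CPM in KO and 0.247, 0.667 and 0.429 CPM in WT (log2 fold change 2.65 ± 0.45 SE, adjusted p = 0.0013). Of 20 milk and alveolar genes only Btn1a1, butyrophilin of the milk fat globule, was called. It stood at 111, 271 and 221 CPM in KO and 667, 1539 and 509 CPM in WT, and the call was lost without KO replicate 1, WT replicate 2 or KO replicate 3. Ltf, the milk iron binder lactoferrin, stood at 2638, 1764 and 2992 CPM in KO and 508, 551 and 1598 CPM in WT. It was higher in every KO library but not past the threshold (adjusted p = 0.12). Of 16 other settings 4 called it (adjusted p from 0.032 to 0.31).

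Part of the genes of the hormone-sensing lineage fell in KO progenitors. Of 22 mature luminal genes, 7 fell, none rose and 15 were not called, with a median of -1.0 and 6 estimates above 0. The count was 4 without KO replicate 3, and 2 without KO replicate 1 or WT replicate 2. The summed level was 1711, 1775 and 1761 CPM in KO and 2497, 2551 and 2018 CPM in WT. Fgfr2, a fibroblast growth factor receptor, stood at 7.297, 28.2 and 11.3 CPM in KO and 85.6, 109 and 91.1 CPM in WT (log2 fold change -2.6 ± 0.39 SE, adjusted p = 0.00057). Esr1, the oestrogen receptor alpha, stood at 3.25, 11.5 and 3.16 CPM in KO and 32.3, 31.2 and 17.1 CPM in WT. Foxa1, the pioneer factor that opens its sites, stood at 11.1, 21.2 and 10.6 CPM in KO and 29.7, 45.1 and 38.5 CPM in WT. Prlr, the prolactin receptor, stood at 51.5, 203 and 65.8 CPM in KO and 418, 569.8 and 415 CPM in WT. KO replicate 2 had the highest KO level of all 4 genes, below every WT library. The calls of Foxa1 and Prlr were lost without KO replicate 1, WT replicate 2 or KO replicate 3 (adjusted p up to 0.086 and 0.11). That of Prlr was also lost with length trends removed, and that of Esr1 in the fit of the 6 LP libraries alone (adjusted p = 0.052). Pgr, the progesterone receptor, stood at 3.002, 19.1 and 5.501 CPM in KO and 32.6, 44.03 and 19.3 CPM in WT. The gap was narrow and missed the threshold (adjusted p = 0.064), and 6 of 16 other settings called it (adjusted p from 0.0087 to 0.21).

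A few basal markers passed the test, in both directions. Over all genes 7.55% rose and 5.68% fell. Of 24 basal markers measured, Mylk, Vim, Krt14 and Lgals7 rose and Lama3 and Oxtr fell, with a median of 0.25. Without KO replicate 3 or WT replicate 2, 2 of the 24 rose and 2 fell. Their summed level was 943, 960 and 900 CPM in KO and 1206, 951 and 988 CPM in WT. Mylk, the myosin light chain kinase, stood at 19.7, 10.1 and 10.3 CPM in KO and 1.48, 1.89 and 1.35 CPM in WT (log2 fold change 3.1 ± 0.43 SE, adjusted p = 0.00032). Vimentin (Vim) stood at 24.4, 15.7 and 31.5 CPM in KO and 9.38, 10.8 and 7.48 CPM in WT, a call lost in the fit of the 6 LP libraries alone (adjusted p = 0.054), also with a replicate block (0.058). The laminin chain Lama3 stood at 24.4, 20.4 and 11.5 CPM in KO and 186, 149 and 94.1 CPM in WT (log2 fold change -2.93 ± 0.34 SE, adjusted p = 5.7e-05). The oxytocin receptor Oxtr stood at 2.04, 4.27 and 4.55 CPM in KO and 6.42, 24.2 and 24.8 CPM in WT. KO and WT did not overlap for these 4 genes. Of 15 fibroblast markers, Postn and Col6a3 rose, and their summed level was 105.3, 115 and 189 CPM in KO and 88.8, 53.01 and 44.9 CPM in WT. Without KO replicate 3, 1 of them rose, and without WT replicate 2 none did. The part of other cells in these levels was not tested.

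Some immediate early genes fell in KO. Of 25 measured, 6 fell, none rose and 19 were not called, with a median of -0.81 and 1 estimate above 0, and 7 fell without KO replicate 3. Fosb, an AP-1 factor, stood at 838, 1242 and 974 CPM in KO and 3153, 11840 and 8430 CPM in WT (log2 fold change -2.94 ± 0.48 SE, adjusted p = 0.001). Its partner Jun stood at 994, 1264 and 1586 CPM in KO and 2155, 6368 and 4596 CPM in WT (log2 fold change -1.77 ± 0.38 SE, adjusted p = 0.0062). Zfp36, which destabilises cytokine messages, stood at 687, 703 and 699.9 CPM in KO and 1595, 3316 and 1928 CPM in WT. The zinc finger factor Klf6 stood at 2513, 2628 and 2081 CPM in KO and 4598, 8959 and 5543 CPM in WT. WT replicate 2 was highest and WT replicate 1 lowest among the WT libraries for all 4, and none overlapped. Fos fell by 2.01 and Btg2 fell by 1.88 on the log2 scale, and the call of Btg2 was lost without KO replicate 1, KO replicate 2 or WT replicate 2 (adjusted p up to 0.12). These genes are known to respond to tissue dissociation as well as to growth signals. How long each gland was dissociated was not analysed here.

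Some nuclear-retained RNAs and chromatin genes also fell. Of 8 nuclear RNAs, Neat1 and Malat1 fell, and neither did without KO replicate 3. Neat1, the scaffold of paraspeckles, stood at 425, 505 and 394 CPM in KO and 1334, 1323 and 659.5 CPM in WT, and 5 of 16 other settings lost its call (adjusted p up to 0.072). Malat1 stood at 1062, 776 and 300 CPM in KO and 1478, 4471 and 1777 CPM in WT, with KO replicate 3 lowest, and 7 of 16 other settings lost its call (adjusted p up to 0.24). Of 32 chromatin regulators, 7 fell and 2 rose, and 2 fell and 2 rose without KO replicate 3. The shares over all genes were 5.68% lower and 7.55% higher. Hdac1, a histone deacetylase, stood at 38.9, 31.3 and 41.04 CPM in KO and 13.5, 15.9 and 19 CPM in WT (log2 fold change 1.2 ± 0.23 SE, adjusted p = 0.0028). Chd3, a remodeller of the NuRD complex, stood at 80.2, 79.7 and 62.7 CPM in KO and 145, 156 and 190 CPM in WT (log2 fold change -1.14 ± 0.24 SE, adjusted p = 0.0053). Both calls held in every other setting.

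The largest single rise was the gene symbolled a, which encodes agouti signalling protein, an antagonist of melanocortin receptors. It stood at 221, 265 and 591 CPM in KO and 0.3701, 0.222 and 0.0613 CPM in WT (log2 fold change 10.88 ± 0.65 SE, adjusted p = 2e-08). Coat colour alleles at this gene differ between mouse strains, and strain background and genotype cannot be told apart here. Nkd2, an inhibitor of Wnt signalling, stood at 89.9, 90.6 and 61.6 CPM in KO and 0.3701, 0.334 and 2.27 CPM in WT (log2 fold change 6.14 ± 0.61 SE, adjusted p = 2.2e-05). Hspb8, a small heat shock protein of selective autophagy, stood at 197, 119.5 and 94.2 CPM in KO and 4.57, 4.45 and 3.31 CPM in WT (log2 fold change 5.07 ± 0.39 SE, adjusted p = 6.4e-07). Stra6, a retinol transporter, stood at 159.9, 50.98 and 24.3 CPM in KO and 0, 0.222 and 0.552 CPM in WT, with a wide range over the KO mice. All of these were near or under 5 CPM in WT.

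Other strong rises had few or no WT counts. Alox5ap, which activates 5-lipoxygenase, had 1364 counts in KO and 2 in WT, a ratio of 252.6 (95% interval 69.78 to 2088). Runx3, a transcription factor, had 637 and 2, a ratio of 117.9 (32.52 to 976.0). Clca2 had 379 and 1, a ratio of 140.4 (25.04 to 5558). Intervals of this kind cover counting error and not the spread between mice. No WT count was seen for 7 genes, which were higher in KO by at least 59.5-fold for Atp6v0a4, 51.6-fold for Crb1, 46.8-fold for Scrg1, 33.8-fold for Thsd7b, 33.6-fold for Abca12, 32.5-fold for Tgm5 and 22.5-fold for Pglyrp3, set against 3 counts over the WT group. Abca12 and Tgm5 serve the skin barrier as a lipid transporter and a transglutaminase, and Atp6v0a4 is a subunit of the proton pump. Pglyrp4, a peptidoglycan recognition protein like Pglyrp3, stood at 22.9, 5.8 and 8.399 CPM in KO and 0.494, 0 and 0 CPM in WT. The interferon-inducible gene Ifi27l2a stood at 36.7, 16.4 and 131 CPM in KO and 0.617, 0.556 and 0.123 CPM in WT, with KO replicate 3 highest. For Pglyrp3, 6 other settings lost the call (adjusted p up to 0.069).

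The strongest rises by p also included Lgals9, Dram1 and Apol9a. Lgals9, a galectin induced by interferon, stood at 80.3, 46.6 and 106 CPM in KO and 9.62, 7.89 and 13.1 CPM in WT (log2 fold change 2.91 ± 0.30 SE, adjusted p = 2.2e-05). Dram1, a lysosomal regulator of autophagy first known as a p53 target, stood at 4.503, 4.63 and 4.51 CPM in KO and 0.123, 0.111 and 0.429 CPM in WT (log2 fold change 4.12 ± 0.43 SE, adjusted p = 2.6e-05). Apol9a, one of 2 near-identical genes that can share reads, stood at 45.99, 27.1 and 124 CPM in KO and 0.864, 1.89 and 0.613 CPM in WT. In each, KO and WT were far apart.

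The largest falls besides Trp53 and Fosb were of genes with varied roles. Mme, the surface peptidase CD10, stood at 30.2, 32.3 and 12.7 CPM in KO and 281, 312 and 175 CPM in WT (log2 fold change -3.35 ± 0.36 SE, adjusted p = 3e-05). Gpc6, a glypican, stood at 5.003, 9.65 and 4.28 CPM in KO and 63.7, 110.4 and 31.3 CPM in WT (log2 fold change -3.43 ± 0.45 SE, adjusted p = 0.0002). Col8a1, a short-chain collagen, stood at 1.67, 8.84 and 6.09 CPM in KO and 92.8, 59.2 and 55.8 CPM in WT (log2 fold change -3.63 ± 0.67 SE, adjusted p = 0.0023). Acan, the proteoglycan aggrecan, stood at 0.5003, 0.669 and 0.362 CPM in KO and 3.21, 8.67 and 2.33 CPM in WT, and Bmpr1b, a BMP receptor, at 0.375, 1.199 and 0.758 CPM in KO and 3.82, 8.67 and 6.25 CPM in WT. All 5 were lower in every KO library than in any WT library. The transcription factor Dach1 stood at 0.959, 1.34 and 1.19 CPM in KO and 12.6, 20.7 and 7.36 CPM in WT. Lgr5, a receptor for R-spondin known from stem cells, stood at 0.0834, 0.167 and 0.198 CPM in KO and 1.36, 4.11 and 0.9195 CPM in WT. Cyria, a Rac1 interactor, stood at 2.29, 2.79 and 2.37 CPM in KO and 14.7, 35.8 and 10.9 CPM in WT. These 3 also did not overlap, though Lgr5 was low throughout. The calls of Lgr5 and Acan were lost after thinning (adjusted p = 0.13 and 0.12).

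Of the remaining large falls, Dlg2, Rragb and the protocadherins Pcdhb11 and Pcdhac2 were at low levels. Pcdhac2, in a cluster whose members share exons, stood at 0.2502, 0.9202 and 0.362 CPM in KO and 7.28, 18.5 and 1.29 CPM in WT, and its call was lost without WT replicate 2 (adjusted p = 0.066) and with limma voom (0.12). The log2 fold change was -3.58 for Dlg2, a synaptic scaffold, -3.39 for Pcdhb11 and -3.00 for Rragb, a GTPase of the mTORC1 pathway, and these 3 calls were lost after thinning. At higher levels, Man2a2, a Golgi mannosidase, stood at 4.04, 7.501 and 5.01 CPM in KO and 21.1, 26.6 and 37.6 CPM in WT (log2 fold change -2.36 ± 0.32 SE, adjusted p = 0.00023). The zinc finger gene Zfp62 stood at 16.2, 27.4 and 16.6 CPM in KO and 55.8, 73.7 and 63.7 CPM in WT (log2 fold change -1.68 ± 0.23 SE, adjusted p = 0.00032). Both were well apart between genotypes.

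To see where the effect differed from that in the other sorted populations, the difference of genotype effects was tested. LP differed from basal cells at 168 of 16466 genes (1.02%), 60 with a higher and 108 with a lower effect in LP, and with the mouse as a block at 437 (2.65%). LP differed from ML cells at 1141 genes (6.93%), 202 higher and 939 lower, and at 1727 with the block (10.5%). Among the 2178 genes called in LP, 126 differed from basal cells (5.79%) and 386 from ML cells (17.7%), or 289 (13.3%) and 546 (25.1%) with the block. For most genes called in LP a difference from the other populations was thus not detected. Set against the ML sort, 17 of 24 basal markers and 14 of 22 progenitor identity genes had a lower genotype effect in LP than in ML, and the median effect in ML was 3.11 and 2.23 for these lists. How far other cells in the ML sort of KO mice set its effects was not tested.

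Hspb8 and Wee1 set LP apart from both. The log2 fold change of Hspb8 was 5.07 in LP, 0.28 ± 0.31 in basal cells and 1.96 ± 0.33 in ML cells (adjusted p of the difference 0.00012 against basal and 0.00037 against ML cells). Wee1 fell by 1.55 in LP, against estimates of 0.64 ± 0.21 and 0.16 ± 0.21 (adjusted p of the difference 0.0024 against basal and 0.0012 against ML cells). Trp53 had -1.72 ± 0.34 in basal cells and -1.58 ± 0.34 in ML cells against -3.60 in LP. The difference from ML passed the test (adjusted p = 0.012), and that from basal cells passed with the mouse as a block (adjusted p = 0.033) and not without it (0.063).

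The other differences of lowest p were with 1 other population or ran with the shift of lineage markers in ML. Nkd2 and Rnf165, a ring finger protein, rose by 6.14 and 6.40 in LP, with estimates of 0.86 ± 0.46 and 0.15 ± 0.45 in basal cells (adjusted p of the difference 0.0024 for both). In ML cells they rose as well, by 7.45 ± 0.68 and 8.05 ± 0.99, and no difference between LP and ML was called. Egflam, a matrix protein, had -1.73 in LP and 2.45 ± 0.41 in basal cells (adjusted p = 0.0024). Lama3, Mme and Lgr5 fell in LP, and in ML their estimates were 3.54 ± 0.35, 1.89 ± 0.35 and 6.05 ± 0.58. All 3 differences passed the test against ML and against basal cells. Adgrl3, an adhesion receptor, had -1.76 in LP and 4.45 ± 0.46 in ML, and Sema6a, a semaphorin, had 0.83 in LP and 6.66 ± 0.36 in ML. The call of Sema6a within LP was lost in 7 other settings. Fgfr2, Prlr and Foxa1 had estimates of 0.32 ± 0.37, 2.15 ± 0.63 and 1.38 ± 0.39 in basal cells, and their lower effect in LP passed the test. Their estimates in ML were also below 0, at -1.85 ± 0.38, -1.62 ± 0.59 and -1.235 ± 0.36, and no difference between LP and ML was called. Kit, not called in LP, had 2.69 ± 0.41 in basal cells and 3.96 ± 0.41 in ML cells, and both differences passed the test.

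In the large groups a minority of members differed between populations. For mitosis the median was 3.92 in basal and 3.63 in ML cells, against 2.87 in LP. Of its 40 genes, 6 had a lower effect in LP than in basal cells (0.656% of all genes did) and 3 a lower effect than in ML (5.7% of all genes). The interferon list had medians of 2.17 and 1.71. Of its 47 genes, 5 had a higher effect in LP than in ML (1.23% of all genes), and 2 had a higher and 1 a lower effect than in basal cells (0.364% and 0.656% of all genes). Ifitm3 was among them, with a higher effect in LP than in both. For the proteasome and complex I the medians in basal and ML cells lay between -0.14 and 0.14, against 0.76 and 0.83 in LP. A higher effect in LP than in ML was called for 4 of 33 and 7 of 37 of these genes.

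**Figure D5:**
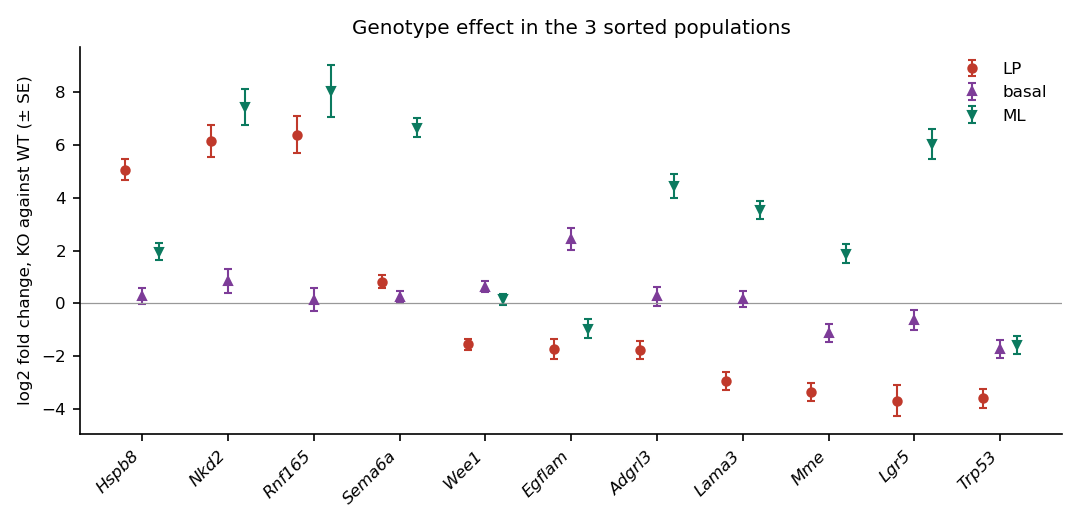
Log2 fold change (KO against WT) with its SE for 11 genes in luminal progenitors (red circles), basal (purple triangles up) and ML cells (green triangles down), with a line at 0. Hspb8 and Wee1 in LP lie apart from both other populations, while Lama3, Mme and Lgr5 have opposite signs in LP and ML.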

How the data were processed

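RNA of 18 sorted libraries was sequenced, from total RNA with the miRNeasy micro kit and the TruSeq RNA v2 protocol, per the labels' protocols. The deposited values are read counts per gene, whole numbers made by the authors with featureCounts on mm10, per the submitters' processing notes. Aligner, annotation, versions and strand setting: not given in the sources used here. Overlapping and antisense genes therefore cannot be told apart. The series table equalled the 18 single files. Of 27179 gene identifiers, 25275 matched a symbol and 1904 did not (1.6% of counts).

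Genes were filtered with edgeR's filterByExpr (16466 left) and scaled with TMM, and all 18 libraries entered 1 quasi-likelihood fit (edgeR 4.0.16, R 4.3.3) of 6 group means (biological coefficient of variation 33.3%). P-values were adjusted by Benjamini-Hochberg over all genes of a contrast. Each library came from 1 mouse by its label. The fit treated the 18 libraries as independent, with 12 residual degrees of freedom, and pooled the spread over basal, LP and ML libraries. The p-values of the LP comparison therefore do not rest on the spread between the LP mice alone. The fit of the 6 LP libraries alone, with 4 residual degrees of freedom, called 688 genes against 2178. Per the labels, libraries of a genotype that share a number come from 1 mouse. The libraries of 1 mouse deviated together (correlations of 0.095 to 0.334), and the differences of effects are also given with the mouse as a block. Libraries of the same population and number but the other genotype, from different mice, correlated at -0.098 to 0.258. The ranges overlap, so these correlations do not set a mouse effect apart from one of the shared number.

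The comparison and the gene lists were chosen with earlier results of these data known. Some genes are not reported here. No list was tested as a set: counts and medians stand beside those of all genes. Genes named are Brca2, Trp53, the 15 largest rises and falls whose genotypes did not overlap and whose higher mean was 2 CPM or more, the 8 of lowest p in each direction, up to 6 of lowest p per list (any member of lists of up to 25), and 5 of lowest p per difference, without predicted, olfactory or antigen receptor genes. Mdm2, Psrc1, Gtse1 and Eda2r were named after their values were seen. Promoter searches matched 12237 of the 16466 genes by gene identifier to RefSeq, GRCm38.p6.

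The test was checked on simulated counts with 200 of 16194 genes changed: in LP it recovered 66.7% of 4-fold, 4.5% of 2-fold and 0% of 1.5-fold changes, and 6% of its calls were false. For the difference from basal cells it recovered 33.3% of 4-fold and 0% of 2-fold changes (0% false), and for that from ML cells 34.8% and 1.5% (7.7% false). The simulated libraries were independent and without length trends, unlike the data, and fewer genes were changed than were called in LP. These shares therefore need not hold for the real counts. Alternatives were RLE scaling, no filter, the 6 LP libraries alone, and a replicate block for LP or the mouse as a block for the differences. Others were DESeq2 1.42.0, limma 3.58.1 voom with and without the mouse as a random effect, thinning to 5.97 M counts and length trends removed. Each LP library was also left out, and edgeR with adjusted deviances was added after seeing the data.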

Additional observations from a re-analysis of the deposited data

Results flagged for a closer look

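Genotype effects that differed between LP and another population by a test of the difference itself (edgeR's quasi-likelihood test, Benjamini-Hochberg) are listed here as log2 differences of fold changes, LP minus the other population. Against basal cells the difference was 4.79 for Hspb8, 5.29 for Nkd2 and 6.25 for Rnf165. It was -2.19 for Wee1, -4.17 for Egflam, -3.05 for Lgr5, -2.24 for Mme and -3.10 for Lama3. For the luminal receptors and factors it was -2.93 for Fgfr2, -4.29 for Prlr, -2.78 for Foxa1 and -3.21 for Kit. Against ML cells the difference was -2.02 for Trp53, 3.11 for Hspb8, -1.71 for Wee1 and -4.48 for Kit. It was -9.73 for Lgr5, -5.24 for Mme, -6.47 for Lama3, -5.83 for Sema6a and -6.21 for Adgrl3. Each passed an adjusted p of 0.05 with and without the mouse as a block, the largest p without the block being 0.044 for Lgr5 against basal cells. These genes were picked for low p or as list members, so the sizes are those of selected genes.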

How the results depend on the processing

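The LP call count was 2178 as reported, 688 (482 higher, 206 lower) from the 6 LP libraries alone, 1233 (710 and 523) from those 6 with a replicate block and 1324 (681 and 643) after thinning. DESeq2 gave 3102 with 1459 lower. Leaving out 1 library gave 830 to 2409 in all, 500 to 1393 higher and 330 to 1016 lower. RLE scaling, no filter, voom, length trends removed and adjusted deviances stayed within 1.5 times. The difference from basal cells (168) was 437 with the mouse as a block, 559 with DESeq2 and 85 with voom. It was 274 with voom and the mouse as a random effect, 96 after thinning and 77 to 224 leave-one-out. The difference from ML cells (1141) was 1727 with the mouse as a block and 1727 with DESeq2, and 868 to 1308 leave-one-out. The fit of 6 libraries has 4 residual degrees of freedom against 12, and thinning leaves fewer counts; for the other settings the cause was not tested. Of 132 named genes called, 90 kept their call in every setting. KO and WT mice share only a number: paired deviations correlated at 0.133, 0.083 and 0.136. The replicate block of the LP comparison is thus no pairing by design. Genes near 1 CPM in WT rest on few reads.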

Other observations

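Calls in some groups not described above are given here, beside shares over all genes of 7.55% higher and 5.68% lower. Of 27 Wnt pathway genes, Lgr5, Fzd4, Rnf43, Tcf7l2 and Lrp6 fell and the ligand Wnt10a rose, with a median log2 fold change of -0.09, and 4 fell and none rose without KO replicate 3. Of 19 genes of the BCL2 family and apoptosis, Bok, Bik, Bak1, Bad and Diablo rose and none fell, with a median of 0.45, and 3 rose without KO replicate 3 and 2 without WT replicate 2. Of 34 splicing genes, the small core proteins Snrpc, Snrpg, Snrpd3, Snrpf and Snrpe rose and Hnrnph1, Clk4, Srsf5, Clk1 and Rbm39 fell. In that list 1 gene rose without KO replicate 3, WT replicate 1 or WT replicate 2, and 2 with length trends removed. In the heat shock list of 15, Hspb8, Hspe1 and Cryab rose and Hsp90aa1 and Hspa1a fell, and without KO replicate 3, 1 rose and none fell. None of 14 ErbB and 23 Atf4 and amino acid genes was called by edgeR, with medians of -0.58 and 0.21.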
